A study of Mus musculus with 2 samples.

Results

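The 38 genes described here encode proteins of DNA replication and cell division. They were taken by symbol from the 43346 mouse genes of the deposited gene tables, and all 38 were found. The tissue was the whole adrenal gland of adult C57BL/6J mice, 8 weeks old, an inbred strain without any engineered allele or treatment named in the labels. The animals are described as littermates of both sexes, with no sex recorded for a sample. There was 1 group with 2 libraries, replicate 1 and replicate 2, and both biosamples refer to the same donor record, so differences measure the spread between these samples and may be partly technical. Stranded paired-end reads of 76 nt came from poly(A)+ RNA over 200 nt, depleted of ribosomal RNA. Replicate 1 had 47615334 gene counts, replicate 2 had 52890677. Since there is no other group, the data give the level of each gene, the transcripts and promoters behind it, and the difference between the libraries. The defining markers of the gland were present: 8 of 8 adrenal cortex markers and 7 of 7 medulla markers were detected, and 4 of 5 germ cell markers were at 0.

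A dividing cell copies its genome once and then separates the copies. In G1 phase, Cdt1 and Cdc6 help to load the ring of Mcm2 to Mcm7 onto DNA. Cdc45 and the GINS proteins turn this ring into the working helicase at the start of S phase, while Pcna clamps the polymerases to the template. Cyclins and Cdk1 then drive entry into mitosis, where kinases, motors and kinetochore proteins move the chromosomes until Cdc20 triggers the anaphase-promoting complex. In the adult adrenal, new steroid-producing cells are known to arise mainly from the capsule and outer cortex.

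Levels are in TPM, a share of all transcripts that takes account of gene length, so genes can be set side by side. Detected here means a level of 1 TPM or higher in each library. By this rule 23 of the 38 genes (60.5%) were detected, beside 54.6% of all protein-coding genes. A further 13 genes were under 1 TPM in both libraries, and Ccnb1 and Ccnb2 passed in replicate 2 alone. Every one of the 38 genes had counts in both libraries. By role, 9 of 11 helicase genes, 4 of 4 clamp and nucleotide genes and 7 of 8 mitotic kinase, checkpoint and ubiquitin ligase genes were detected. Of the cyclins and Cdk1 3 of 6 were detected, of the spindle motor and kinetochore genes 0 of 7, and of Mki67 and Top2a neither. In whole tissue, few cells with much RNA and many cells with little RNA cannot be told apart.

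The summed level of the 38 genes was 222 TPM in replicate 1 and 261 TPM in replicate 2, a mean of 242 TPM ± 27.6 (SD, n = 2). The 5 highest genes held 52.7% of this sum in replicate 1 and 57.2% in replicate 2. Only Pcna and Mcm2 were over 20 TPM in both libraries. Another 4 genes were under 0.1 TPM in both. The plot of levels by role shows this range.

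**Figure D1:**
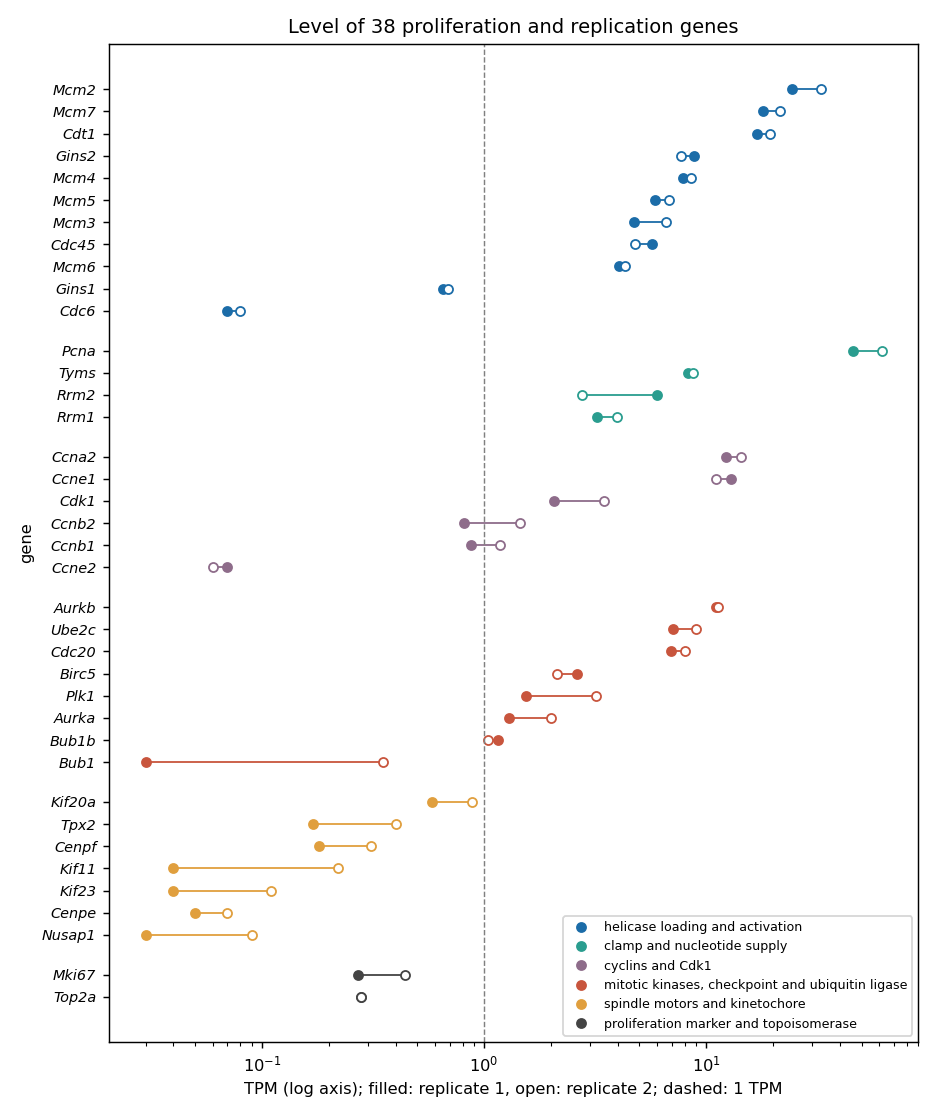
Level of each of the 38 genes in TPM on a log axis, grouped by role, with replicate 1 filled, replicate 2 open and a dashed line at 1 TPM. Helicase, clamp and nucleotide genes lie mostly to the right of the line, while all 7 spindle motor and kinetochore genes, Mki67 and Top2a lie to its left in both libraries.

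Cell cycle promoters are known for a few short motifs, so the windows from 250 bases before to 50 bases after the start of each gene were searched on both strands. The E2F core was searched in several forms. The first form was TTCCCGC, a form with other middle letters was TTGGCGC, a further related form was TTCGCGC, and the remaining form was TTGCCGC. E2F factors are known regulators of S phase genes. The cell cycle homology region (CHR) was searched as TTTGAA and the CCAAT box as CCAAT, both known from promoters of late cell cycle genes. RefSeq windows on GRCm38.p6 were found for 30 of the 38 genes, with 31 windows in all since Mcm7 has more than 1 start. No window was given for Tpx2, Mcm4, Ccna2, Ccne2, Gins2, Gins1, Aurkb and Kif20a.

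The CHR was found in 14 of 31 windows (45.2%), beside 17.9% of all 32851 windows. The CCAAT box was found in 25 of 31 (80.6%), beside 37.4% of all windows. An E2F core was found in 12 of 31 (38.7%), beside 9.57% of all windows. The groupings that follow were made after the matches were seen. In the windows of the helicase, clamp and nucleotide genes, 9 of 13 held an E2F core and 2 of 13 a CHR, in Cdc45 and Mcm2. In the windows of the mitotic kinase, checkpoint, spindle and kinetochore genes, 0 of 12 held an E2F core and 8 of 12 a CHR. The set of cyclins, Cdk1, Mki67 and Top2a, which also holds mitotic genes, had E2F cores in 3 of 6 windows (Ccnb1, Cdk1 and Mki67) and a CHR in 4 of 6, so the count of 0 depends on where these genes are placed. The CCAAT box was found in 10 of 13 replication windows, 5 of 6 of the cyclin set and 10 of 12 mitosis windows. With only the 250 bases before the start, 9 of 31 windows held a CHR (29.0%), beside 16.0% of all, and in the mitosis set 3 of 12. In Ccnb1 the E2F core overlaps a CCAAT box. A match describes letters and does not show that a factor binds.

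**Figure D2:**
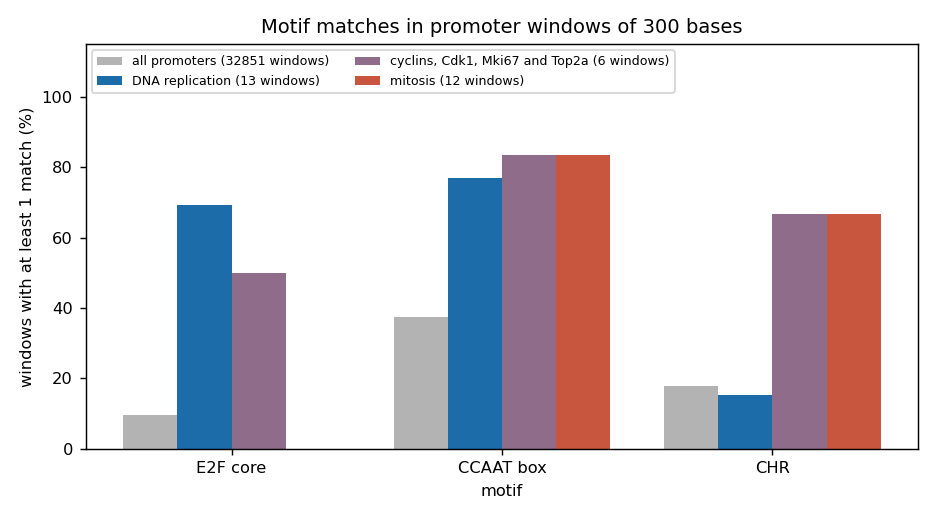
Share of 300-base promoter windows with at least 1 match to each motif, in percent, for all 32851 windows and for 3 sets of the genes described here. E2F cores were matched in 69.2% of the replication windows and in 0 of 12 mitosis windows, while the CHR was matched in 15.4% and 66.7%.

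The 250 bases before the start are printed for 6 genes, 5′ to 3′ on the gene's strand with GRCm38.p6 coordinates and matched motifs in capitals. The RefSeq start can differ from the GENCODE gene start used elsewhere here. Mcm6 and Rrm2 stand for the S phase set, Cdk1 and Top2a for genes with several motifs, Cdc20 for the mitotic set, and Rrm2 and Kif11 are the genes past both the 2-fold and the p limit between the libraries.
Mcm6 (chr1:128359706-128359955, minus strand): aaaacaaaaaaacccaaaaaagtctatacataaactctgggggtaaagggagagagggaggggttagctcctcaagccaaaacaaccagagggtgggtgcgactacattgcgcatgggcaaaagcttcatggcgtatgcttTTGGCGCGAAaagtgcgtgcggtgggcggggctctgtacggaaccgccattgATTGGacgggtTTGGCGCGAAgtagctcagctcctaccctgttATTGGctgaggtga
Rrm2 (chr12:24708004-24708253, plus strand): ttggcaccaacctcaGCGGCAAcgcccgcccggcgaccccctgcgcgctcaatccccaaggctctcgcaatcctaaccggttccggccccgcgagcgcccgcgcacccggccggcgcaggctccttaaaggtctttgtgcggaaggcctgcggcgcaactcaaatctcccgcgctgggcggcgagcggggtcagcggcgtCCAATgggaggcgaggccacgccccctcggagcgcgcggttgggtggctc
Cdk1 (chr10:69352913-69353162, minus strand): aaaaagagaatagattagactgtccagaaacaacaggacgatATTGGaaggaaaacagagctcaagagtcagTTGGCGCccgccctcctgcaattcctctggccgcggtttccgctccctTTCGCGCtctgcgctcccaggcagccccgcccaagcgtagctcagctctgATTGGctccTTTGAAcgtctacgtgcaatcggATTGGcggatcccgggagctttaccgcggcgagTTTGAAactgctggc
Top2a (chr11:99024190-99024439, minus strand): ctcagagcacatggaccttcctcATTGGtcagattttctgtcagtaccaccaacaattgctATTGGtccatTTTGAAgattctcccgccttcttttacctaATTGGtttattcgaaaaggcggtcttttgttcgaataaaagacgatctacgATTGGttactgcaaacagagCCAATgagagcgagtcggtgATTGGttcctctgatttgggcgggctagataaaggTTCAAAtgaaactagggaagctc
Cdc20 (chr4:118437344-118437593, minus strand): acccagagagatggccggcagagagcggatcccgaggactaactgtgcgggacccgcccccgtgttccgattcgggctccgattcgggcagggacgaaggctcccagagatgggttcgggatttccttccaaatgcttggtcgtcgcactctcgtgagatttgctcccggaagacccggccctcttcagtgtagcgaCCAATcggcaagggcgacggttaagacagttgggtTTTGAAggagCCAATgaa
Kif11 (chr19:37376132-37376381, plus strand): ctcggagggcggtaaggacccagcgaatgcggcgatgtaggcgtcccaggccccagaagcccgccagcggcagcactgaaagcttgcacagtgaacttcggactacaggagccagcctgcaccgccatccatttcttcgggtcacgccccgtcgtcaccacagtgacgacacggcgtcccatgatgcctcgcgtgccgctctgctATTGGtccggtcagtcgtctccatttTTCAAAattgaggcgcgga
In Mcm6 the capitals TTGGCGCGAA, present at both E2F positions, are 2 overlapping E2F cores on opposite strands. Cdk1 held all 3 motifs: an E2F core starting 178 bases before the start, and CHRs at 71 and 15 bases. Top2a held 6 CCAAT boxes and 2 CHRs. In Cdc20 and Kif11 the CHR lay close to the start, at 18 and 19 bases. Rrm2 held a single CCAAT box at 50 bases and an E2F core at 235 bases.

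Among the helicase genes, Mcm2 (chr6:88883474-88898780) was highest, with 24.2 TPM (replicate 1) and 32.9 TPM (replicate 2). The 6 ring subunits assemble in equal numbers, but their transcript levels were unequal. Mcm7 was at 18.0 and 21.5 TPM, and Mcm4 at 7.81 and 8.54 TPM. Mcm5 followed at 5.89 and 6.77 TPM, Mcm3 at 4.72 and 6.61 TPM, and Mcm6 at 4.03 and 4.30 TPM. Mcm2 was 6.01 times as high as Mcm6 in replicate 1 and 7.64 times in replicate 2, so this order held in both libraries. Mcm2, Mcm7 and Mcm4 kept apart from their neighbours in the order in both libraries. Mcm5 and Mcm3 overlapped across libraries, since Mcm3 in replicate 2 was above Mcm5 in replicate 1.

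The loader Cdt1 (chr8:122568015-122573554) was at 17.0 and 19.4 TPM, and its partner in loading Cdc6 at 0.07 and 0.08 TPM. This was a ratio of 243 in replicate 1 and 242 in replicate 2, resting on 10 and 13 counts of Cdc6. By the authors' posterior mean TPM, the mean level of Cdc6 was 0.165 instead of 0.075, with Cdt1 at 18.0, so the size of this ratio depends on the estimate used. Cdt1 lies on the same strand as the read-through locus Gm20388 and its count was fractional in replicate 1, 1177.66, and whole in replicate 2. Whether the loci share reads was not tested, so the Cdt1 values are uncertain in this respect. Of the helicase activators, Cdc45 was at 5.67 and 4.76 TPM. Gins2 was at 8.78 and 7.67 TPM and Gins1, another subunit of the same complex, at 0.65 and 0.69 TPM. Most of the Gins2 level came from a transcript that is not protein-coding, given below, and with protein-coding transcripts alone Gins2 stood at 0.63 and 0.40 TPM, beside Gins1.

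Pcna (chr2:132249162-132253314), the sliding clamp, was the highest of the 38 genes with 45.8 TPM in the first library and 61.5 TPM in the second. Its mean lay at percentile 86.9 of all protein-coding genes. Its processed pseudogene Pcna-ps2 was assigned 2.01 and 8.06 counts, against 2104 and 3042 for Pcna, so little was split off. Pcna also works in DNA repair, and it is not a marker of S phase alone. Tyms, the thymidylate synthase, was at 8.24 and 8.72 TPM. Ribonucleotide reductase, which makes deoxynucleotides, has a large subunit Rrm1 and an S phase small subunit Rrm2. Rrm1 was at 3.21 and 3.95 TPM and Rrm2 at 5.99 and 2.75 TPM. Their order therefore differed between the libraries, with Rrm2 above Rrm1 in replicate 1 and below it in replicate 2.

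Of the cyclins and Cdk1, Ccna2, the cyclin of S and G2 phase, was at 12.3 and 14.4 TPM. Ccne1, the cyclin of the G1 to S transition, was at 12.9 and 11.0 TPM, and its values overlapped those of Ccna2 across the libraries. Ccne2 was at 0.07 and 0.06 TPM from 2 and 3 counts. Cdk1, the mitotic kinase, was at 2.07 and 3.47 TPM. Its partners Ccnb1 and Ccnb2, the mitotic cyclins, were lower: Ccnb1 at 0.87 and 1.18 TPM, and Ccnb2 at 0.81 and 1.45 TPM. The values of Ccnb1 and Ccnb2 overlapped when all transcripts were counted, but not by protein-coding transcripts alone, given below. By protein-coding transcripts, the values of Cdk1 and Ccnb2 overlapped across the libraries, with Ccnb2 the lower in each library.

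The mitotic kinase, checkpoint and ubiquitin ligase genes were detected in 7 of 8 cases. Aurkb, the kinase of the chromosomal passenger complex, was at 11.1 and 11.3 TPM. Its partner Birc5 was at 2.61 and 2.13 TPM. Ube2c, the ubiquitin-conjugating enzyme of the anaphase-promoting complex, was at 7.09 and 9.0 TPM, and its activator Cdc20 at 6.91 and 8.00 TPM. These values overlap across libraries. Plk1, a kinase of mitotic entry, was at 1.55 and 3.18 TPM, and Aurka, a centrosome kinase, at 1.29 and 2.00 TPM. The checkpoint protein Bub1b was at 1.15 and 1.04 TPM. Bub1, its checkpoint relative, had only 3 and 4 counts and stood at 0.03 and 0.35 TPM. In replicate 2 the authors' tables assigned 3 of its counts to a transcript of 438 nt, which has a high TPM per count.

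All 7 spindle motor and kinetochore genes were under 1 TPM in both libraries. The highest was Kif20a, a motor of cell separation, at 0.58 and 0.88 TPM. Tpx2, a spindle assembly factor, was at 0.17 and 0.40 TPM, and Cenpf, a kinetochore protein, at 0.18 and 0.31 TPM. Kif11, the motor that pushes spindle poles apart, was at 0.04 and 0.22 TPM. The motors Kif23 and Cenpe and the spindle protein Nusap1 lay between 0.03 and 0.11 TPM. The Cenpf values rest mainly on 0.88 and 1.67 counts assigned to a transcript of 358 nt. For Tpx2 in replicate 2, 67.5% of the level came from 1.7 counts of a retained-intron transcript, also of 358 nt. Tpx2 had 24 counts in replicate 1 and 19 in replicate 2. By protein-coding transcripts alone it was at 0.17 and 0.13 TPM.

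Mki67 (chr7:135689784-135716361), the gene of the Ki-67 antigen used to stain dividing cells, was at 0.27 and 0.44 TPM from 93 and 162 counts. Top2a, the topoisomerase of replicated chromosomes, was at 0.28 TPM in both libraries, from 15 and 24 counts. Of this level, 78.6% in replicate 1 and 42.9% in replicate 2 came from a processed transcript of 803 nt. This transcript was assigned 4.64 and 2.84 counts. By protein-coding transcripts alone, Top2a was at 0.06 and 0.11 TPM. Pcna was 169.6 times as high as Mki67 in replicate 1 and 139.8 times in replicate 2. By posterior mean TPM the mean of Top2a was 0.56. Both marker genes of dividing cells were under 1 TPM and thus low in both libraries, while Pcna and Mcm2 were not.

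The order of several genes depended on which transcripts were counted. The authors' transcript tables divide each gene's reads among its annotated transcripts, and short transcripts gain in TPM relative to their reads. Of the 23 detected genes, 5 had under 50% of their TPM in protein-coding transcripts in both libraries, beside 14% of all detected protein-coding genes. These were Ccna2, Ccne1, Aurkb, Tyms and Gins2. The same 5 were the detected genes led by a transcript of another class in both libraries, among 17 with more than 1 transcript, beside 18.2% of such genes in all.

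Ccna2-202, a retained-intron transcript of 856 nt, held 87.8% of the Ccna2 level in replicate 1 and 89.0% in replicate 2. The protein-coding transcripts of Ccna2 were at 1.42 and 1.58 TPM. Ccne1-202, of 629 nt and annotated for nonsense-mediated decay, held 90.7% and 91.1% of the Ccne1 level, which left 1.20 and 0.98 TPM for protein-coding transcripts. By protein-coding transcripts Cdk1 was at 1.28 and 1.5 TPM, Ccnb1 at 0.16 TPM in both libraries, and Ccne2 at 0.01 and 0.02 TPM. Ccnb2 has a single transcript and stayed at 0.81 and 1.45 TPM, above Ccnb1 in both libraries. Gins2-204, a retained-intron transcript of 511 nt, held 92.3% and 88.8% of Gins2. Tyms-202, a retained-intron transcript of 816 nt, held 72.5% and 74.2% of Tyms, and its protein-coding transcripts were at 1.60 and 1.17 TPM. Aurkb-204, a processed transcript of 615 nt, held 55.6% and 55.2% of Aurkb. With other transcripts of this kind, 68.8% and 72.5% of the Aurkb level was not protein-coding, and its protein-coding transcripts were at 3.46 and 3.09 TPM. By read counts the protein-coding share was larger, 35.5% for Ccna2 and 66.9% for Aurkb in replicate 1.

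With protein-coding transcripts alone, an alternative chosen after seeing the data, 20 of 38 genes were detected, beside 52% of all protein-coding genes. Ccne1 and Gins2 were then under the minimum in at least 1 library. The third such gene was Bub1b, at 1.15 and 0.97 TPM. The summed level was then 172 TPM in replicate 1 and 206 TPM in replicate 2, which is 77.6% and 78.7% of the full sum. Over all protein-coding genes this share was 79.2% and 79.1%. Mcm2 and Cdt1 kept 100% of their level, and Pcna 99.9% in replicate 1 and 100% in replicate 2.

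**Figure D3:**
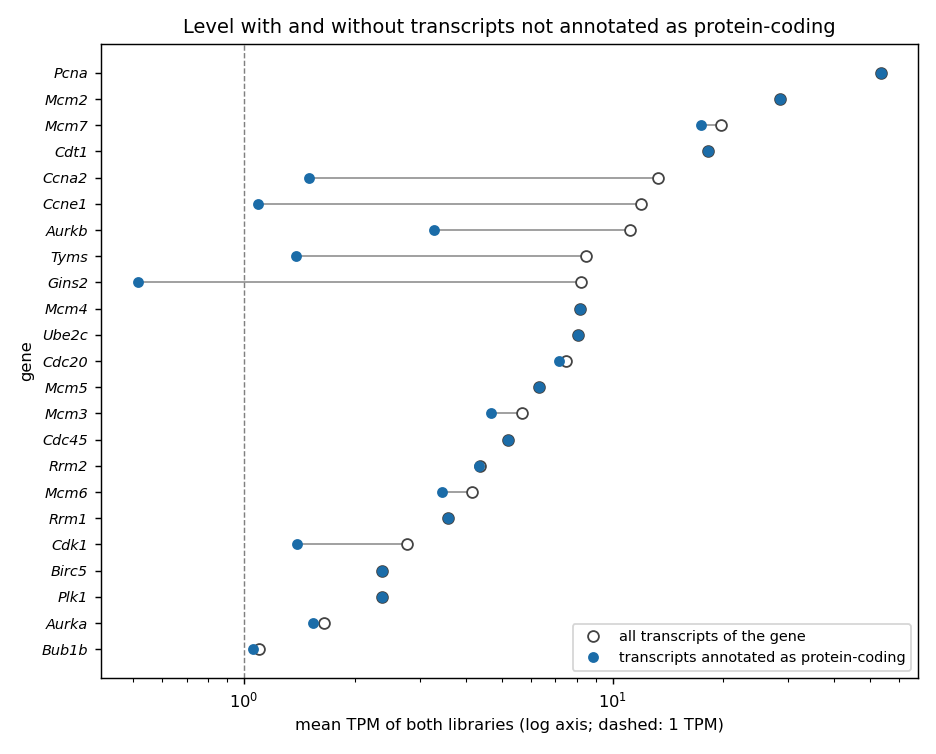
Mean TPM of both libraries on a log axis for the 23 detected genes, from all transcripts (open) and from transcripts annotated as protein-coding (filled), with a dashed line at 1 TPM. The lines are long for Ccna2, Ccne1, Aurkb, Tyms and Gins2, and have almost no length for Pcna, Mcm2 and Cdt1.

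The leading transcript was the same in both libraries for 16 of the 17 detected genes with more than 1 transcript, beside 87.5% of all such genes. The exception was Cdk1, led by the protein-coding Cdk1-202 with 60.4% in replicate 1 and by a retained-intron transcript of 378 nt with 26.3% in replicate 2. Below the minimum, 7 of 10 genes had the same leading transcript, and Bub1, Tpx2 and Nusap1 did not. Ccnb1 was led in both libraries by the retained-intron Ccnb1-204, with 73.6% and 86.4%. Several of the 38 genes overlap a gene on the opposite strand: Gins2 overlaps Gse1, Ccna2 Exosc9, Cdc20 Elovl1, Mcm7 Cops6 and Ap4m1, Cdc45 Ufd1, Kif20a Cdc23, Nusap1 Oip5, Ube2c Tnnc2 and Ccne2 Ints8. Elovl1 was at 162 and 229.9 TPM, far above Cdc20, and Cops6 at 44.8 and 48.9 TPM, above Mcm7. Cdc23 was at 23.5 and 29.8 TPM, far above Kif20a. Gse1, Ap4m1, Ufd1, Oip5 and Ints8 were also above the gene they overlap in both libraries, while Exosc9 and Tnnc2 were below it. Gins2 also overlaps Gm20388 on the opposite strand, at 43.8 and 49.9 TPM. The sources used here do not say whether the authors' quantification used the strand, so these levels are uncertain in that respect.

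Levels were higher for genes with a higher GC content of the transcript. Over the 38 genes, Spearman's rho between GC content and mean TPM was 0.60, and over 21373 protein-coding genes it was 0.44; the points share both libraries. Protein-coding genes were put into 5 equal bins of GC content. All of the 38 genes in the upper bins were detected, 3 of 3 in the highest and 9 of 9 in the next. In the lowest bin 0 of 5 were detected, in the one above it 6 of 12 and in the middle bin 5 of 9. Over all protein-coding genes the shares detected, from the lowest bin to the highest, were 26.1%, 48.3%, 57.5%, 67.3% and 74.5%. Pcna, at 45.3% GC, lay far above the median of its bin, and Plk1, at 56.0% GC, lay below it. For length the sign differed: rho with transcript length was -0.49 for the 38 genes and 0.29 for all. The part of GC content and length in the levels was not tested.

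**Figure D4:**
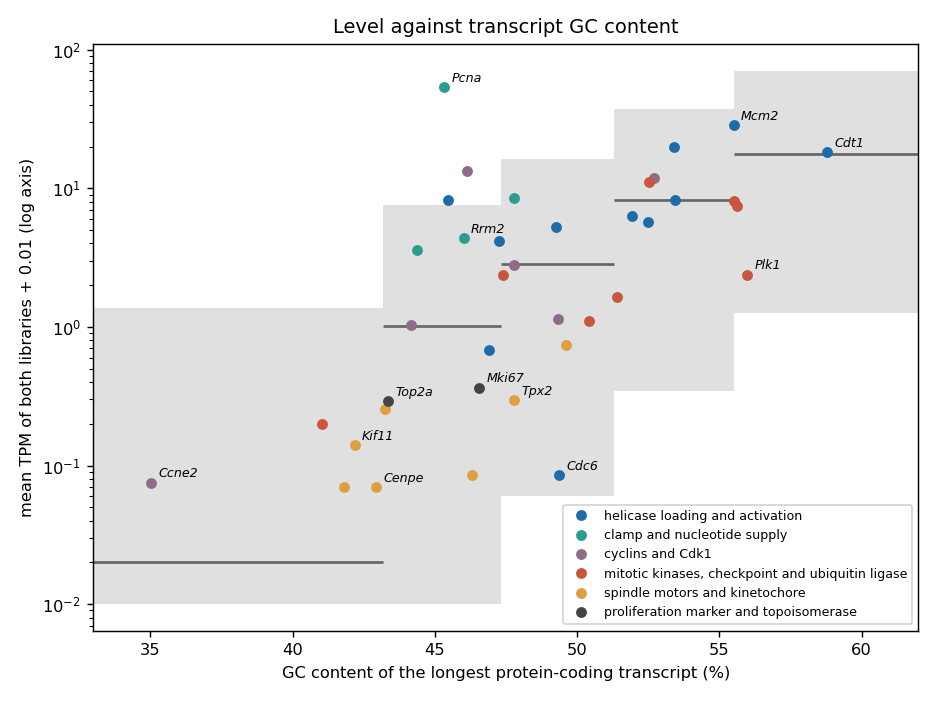
Mean TPM plus 0.01 on a log axis against GC content of the longest protein-coding transcript for the 38 genes, coloured by role. Grey boxes give the interquartile range and dark lines the median of all protein-coding genes in each of 5 GC bins; Pcna lies above its box and Kif11 and Ccne2 lie at the low end of GC content.

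The libraries were then compared gene by gene with a two-sided exact binomial test of counts, which compares the reads of 2 libraries and no conditions. A call needed 2-fold and an adjusted p under 0.05. Of the 38 genes, 34 had the required 20 counts in sum, and Bub1, Kif23, Ccne2 and Nusap1 did not. Called were 2 of 34, Rrm2 and Kif11, beside 6.79% of all genes tested, a share near the background. In all, 676 genes were higher in replicate 1 (4.27%) and 399 in replicate 2 (2.52%). Scaled by spike-ins, which shifts the median of all genes by -0.43 on the log2 scale, the split turned to 286 and 1290.

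Rrm2 (chr12:24708241-24714146) had 413 counts in replicate 1 and 205 in replicate 2. Its log2 ratio of replicate 1 over replicate 2 was 1.16 (95% counting interval 0.91 to 1.41), a 2.23-fold difference with an adjusted p of 3.56e-21 in the exact binomial test. Kif11 (chr19:37376403-37421859) had 7 and 38 counts. Its log2 ratio was -2.22 (interval -3.70 to -1.11), 4.65-fold higher in replicate 2 with an adjusted p of 4.38e-05 in the same exact test. The pair thus went opposite ways, one an S phase gene and the other a mitotic motor, but their classes did not split in this way. The log2 ratio was below 0, as for Kif11, for 8 of 11 helicase genes and 2 of 4 clamp and nucleotide genes. Scaled by spike-ins, the log2 ratio of Rrm2 was 0.73 and it was no longer called. Neither gene was called by the edgeR exact test with an assumed coefficient of variation of 0.2.

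Plk1 lay just under the required fold, at 1.99-fold higher in replicate 2 from 108 and 238 counts, with an adjusted p of 5.24e-09 by the exact test. Cenpf, with 9 and 23 counts, was past the fold at 2.24 but had an adjusted p of 0.069. Ccnb2 was 1.73-fold higher in replicate 2 with an adjusted p of 0.013 by the exact test, and Mki67 1.57-fold with 0.0012. The replication genes with the highest levels differed less: Pcna was 1.31-fold and Mcm2 1.31-fold higher in replicate 2.

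Of 34 log2 ratios, 25 were below 0, that is higher in replicate 2 (73.5%), beside 50.5% of all genes tested. The median was -0.18 against -0.0045 for all genes, and by spike-in scaling -0.61 against -0.43. Without spike-in scaling, the median also varied with GC content. Over all protein-coding genes tested it was -0.082, -0.079, -0.055, -0.0024 and 0.115 from the lowest GC bin to the highest. For the 34 genes it was -1.36 (from 2 genes), -0.17, -0.19, -0.16 and -0.15. The part of GC content in the ratios was not tested. The 95% counting interval lay below 0 for 15 genes, beside 30.6% of all genes, and above 0 for 4, beside 30.7%. The 4 were Rrm2, Cdc45, Ccne1 and Tyms. The log2 ratio was below 0 for 8 of 8 cortex markers, whose summed level was 25049 TPM in replicate 1 and 33475 in replicate 2. It was above 0 for 7 of 8 adipocyte markers, with sums of 15512 and 6959 TPM. Their part in the result was not tested.

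**Figure D5:**
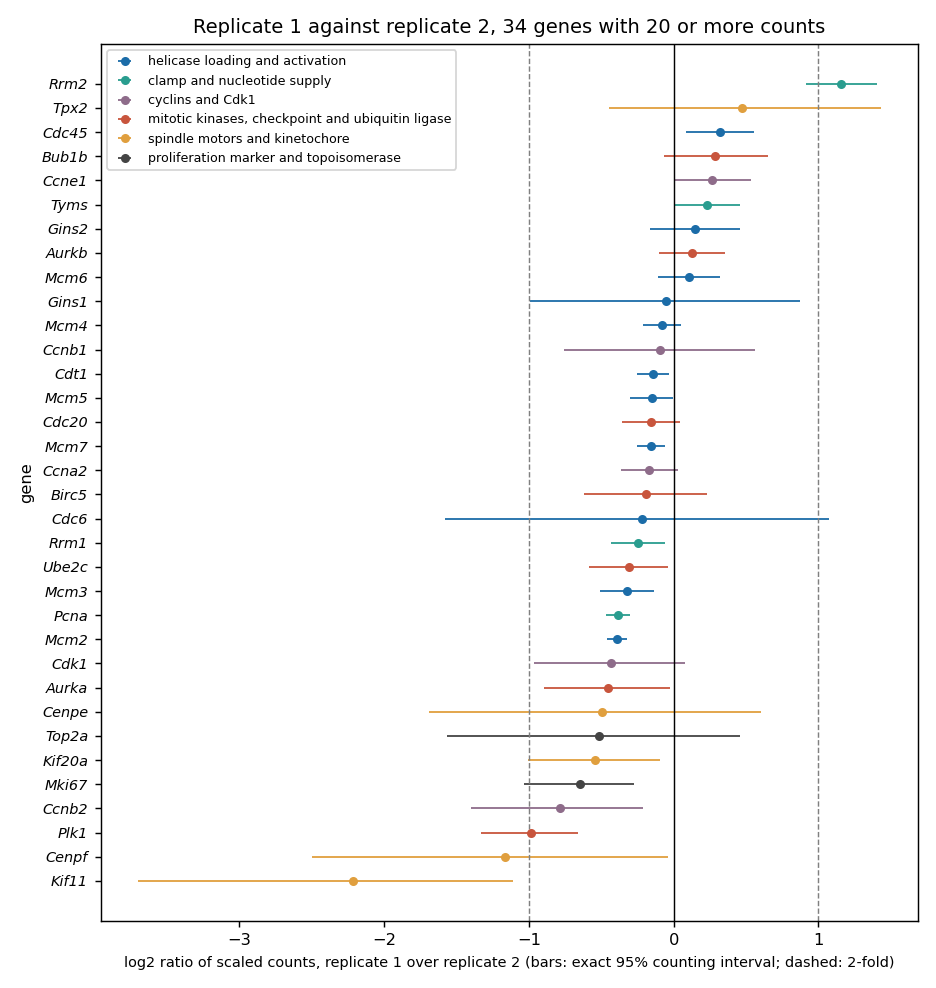
Log2 ratio of scaled counts, replicate 1 over replicate 2, for 34 genes, with exact 95% counting intervals and dashed lines at 2-fold. Rrm2 lies to the right of the upper line and Kif11 wholly to the left of the lower one, and most others lie left of 0 within 2-fold.

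The wider pathway was described with 142 further genes in 7 lists. Of these 98 were detected (69.0%), beside 54.6% of protein-coding genes. Of 132 tested, 7 were called, beside 6.79% of all genes in either direction, a share near the background. Higher in replicate 1 were 0, beside 4.27% of all genes, and higher in replicate 2 were all 7, beside 2.52%. They were Orc5 of the origin recognition complex with 33 and 107 counts, Wdhd1 with 18 and 41, Ticrr with 17 and 46, the repressor E2f7 with 10 and 78, the cohesin factor Cdca5 with 21 and 54, the spindle protein Dlgap5 with 11 and 33, and the motor Kif4 with 6 and 35.

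The highest gene of several lists stood above Pcna in both libraries. These levels count all transcripts of a gene, and levels by protein-coding transcripts alone are not given here for these lists. By counts the distance can be smaller: Pold2 had 2819 and 3712 counts, against 2104 and 3042 for Pcna. The order can also be reversed by counts: H2afz, given below, had 1779 and 1528 counts, under Pcna in both libraries. Ccnd3, a G1 cyclin, was at 1335 and 1387 TPM and Ccnd1 at 109.9 and 127.6 TPM. All 7 CDK inhibitors, proteins that hold cells out of the cycle, were detected. They were led by Cdkn1c at 444 and 563 TPM, followed by Cdkn1a, which was below Pcna, at 36.0 and 32.7 TPM. The anaphase-promoting complex list had 15 of 17 detected, with Anapc11 at 183.8 and 185.6 TPM and Ube2s at 210.2 and 132.8 TPM. Of the DNA polymerase and fork list, 23 of 29 were detected, led by Pold2 at 191.6 and 220.6 TPM and Pold4 at 144.1 and 108.6 TPM. E2f4 was at 90.0 and 99.9 TPM and Tfdp2 at 58.4 and 65.3 TPM, in a list with 16 of 20 detected.

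Origin recognition and other licensing genes were detected in 12 of 19 cases, with Mcmbp at 22.5 and 20.4 TPM and Orc2 at 9.87 and 16.0 TPM. Further mitotic genes were detected in 15 of 39 cases, and this share, 38.5%, was the lowest of the 7 lists. The 2 highest of them were H2afz at 237.3 and 176.0 TPM and Tubb5 at 138.1 and 155.2 TPM, which also serve cells that do not divide.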

How the data were processed

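RNA of adult mouse adrenal gland was measured in 2 libraries of 1 group. The deposited gene and transcript tables hold 3 units for each gene or transcript, per the file headers: expected count, TPM and FPKM, with posterior means beside them. Per the readme files deposited with them, they derive from alignments to the mm10 transcriptome with the M4 annotation. The sources used here name neither aligner nor quantifier. The authors' expected count is an estimate of read pairs, fractional where reads were shared. The authors' TPM and FPKM are scaled by length and by library.

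Symbols, transcript classes and GC content (longest protein-coding transcript) came from GENCODE M21 on GRCm38, matched by identifier, and promoter windows from RefSeq on GRCm38.p6. Counts were rounded for the test and scaled by TMM factors of 1.00 and 0.999 (edgeR 4.0.16, R 4.3.3). A two-sided exact binomial test (scipy 1.17.1) was run on the 15824 genes with 20 or more counts in sum, and p-values were Benjamini-Hochberg adjusted; a call needed 2-fold and an adjusted p under 0.05. Ratios used a prior count of 0.5, and the 95% intervals (Clopper-Pearson) cover counting error only. The test was tried on simulated counts with known changes and counting error alone. This cannot show how it behaves where libraries differ by more than counting error. With 1 library on each side, a ratio has no replicate check.

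Spike-ins took 0.654% and 0.485% of counts and were left out. The contig and junction tables, in mm9, were not used, and their coordinates were not converted. The 38 genes and the gene lists were chosen with earlier results of these data known. Named are the 38 genes and, of the other lists, each gene called and the 2 with the highest mean TPM. Alternatives were other TPM minimums, posterior means, FPKM, other scalings (DESeq2 1.42.0 size factors, total counts, spike-ins), prior counts, count and fold minimums, an edgeR exact test with assumed variation, a shorter promoter window, leaving out each library and, chosen after seeing the data, protein-coding transcripts alone.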

Additional observations from a re-analysis of the deposited data

How the results depend on the processing

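Of the 38 genes, 23 were detected, and 13 with a minimum of 5 TPM, a stricter limit by construction. Leaving out each library in turn gave 23 to 25 detected genes and a summed level of 222 to 261 TPM. The sum was 172 in FPKM, another unit, and 189 TPM with protein-coding transcripts alone (chosen after seeing the data), which counts fewer transcripts. Genes past 2-fold numbered 2 of 34 tested, beside 6.79% of all genes. By spike-in scaling they numbered 5 of 34 (Ccnb2, Cenpf, Kif11, Mki67 and Plk1, so without Rrm2), beside 9.96% of all genes. With that scaling the median log2 ratio moved from -0.18 to -0.61 while that of all genes moved to -0.43. With a minimum of 100 counts 1 of 26 passed (Rrm2), beside 3.48% of all genes, since Kif11 was no longer tested. With a minimum of 1.5-fold 5 of 34 passed, beside 15.5% of all genes, a share near the background. The edgeR exact test with an assumed coefficient of variation of 0.2 or 0.4 called 0 of the 38 genes, against 2 by the binomial test, and 244 or 42 genes in all. Over all genes the calls numbered 1075, against 2456 at 1.5-fold and 462 with 100 counts. Within 250 bases before the start, a shorter window, 9 promoters held a CHR against 14. DESeq2 size factors, total counts, posterior means, a prior count of 2, no minimum count and a ratio of TPM kept both calls, Kif11 and Rrm2. Of the 38 single levels, 26 moved by more than their SD in FPKM, 11 with posterior means and 10 with protein-coding transcripts alone. The cause was not tested where none is named. Ratios between the libraries cannot be had with a library left out. Low counts limit most of the 13 genes under 1 TPM in both libraries, among them Cdc6, Gins1 and Ccne2 beside most spindle genes. Mki67 (93 and 162 counts) and Kif20a (68 and 110) are also under 1 TPM but had more counts than the detected Cdk1 (54 and 81). By posterior means Ccne2 moved from 0.065 to 0.51, Nusap1 from 0.06 to 0.38, Tpx2 from 0.285 to 0.765, Cenpf from 0.245 to 0.525 and Bub1 from 0.19 to 0.445 TPM.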

Other observations

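Several assemblies of the wider replication machinery had 1 subunit with very few reads, and these genes were chosen after their values were seen. Of the replication factor C clamp loader, Rfc2 was at 12.1 TPM in replicate 1 and 11.9 in replicate 2 and Rfc5 at 11.6 and 10.2 TPM, while Rfc4 had 1 and 0 counts. Of the single-strand binding protein RPA, Rpa1 was at 12.0 and 16.7 TPM and Rpa3 at 0.24 and 0.17 TPM, from 4 and 3 counts. Of the origin recognition complex, Orc2 was at 9.87 and 16.0 TPM and Orc1 at 0.12 and 0.05 TPM. Rfc4, at 43.5% GC, and Rpa3, at 40.4% GC, lay below the median GC content of all protein-coding genes, 49.3%, and the part of GC content was not tested. Gmnn, which encodes geminin, the inhibitor of Cdt1, had 18 counts in the first library and 0 in the second. Against a floor of 3 counts this is at least 6.65-fold higher in replicate 1, and the gene was below the minimum for the test.

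Markers of the cells in the gland were listed for the comparison of the libraries. Cortex markers were led by Cyp21a1, at 14483 and 19341 TPM, and Hsd3b1, at 2831 and 3268 TPM. Medulla markers had summed levels of 3923 and 3622 TPM, led by Chga at 2420.0 and 2083 TPM and Pnmt at 381 and 593 TPM. Chgb, a further medulla marker, was called higher in replicate 1, at 290.3 and 146.9 TPM. Of the adipocyte markers, Cfd at 9884 and 3984 TPM and Ucp1 at 1129 and 544 TPM were called higher in replicate 1, and Car3, at 2338 and 1175 TPM, was 1.94-fold higher. Endothelial markers had sums of 1261 and 1063 TPM, led by Plvap at 690.5 and 594.5 TPM and Egfl7 at 444 and 351 TPM.

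Macrophage markers had sums of 988 and 918 TPM, led by Cd74 at 519 and 478 TPM and C1qc at 205 and 194 TPM. Lymphocyte markers had sums of 10.8 and 10.6 TPM, led by Ptprc at 6.27 and 4.62 TPM and Cd79a at 2.21 and 3.05 TPM, with 2 of 9 detected. Fibroblast and capsule markers had sums of 312 and 314 TPM, led by Nr2f2 at 133.0 and 155.9 TPM and Col1a2 at 44.0 and 41.9 TPM. Erythroid markers had sums of 2457 and 3284 TPM, led by Hba-a1 at 1846 and 2416 TPM and Hbb-bs at 605.5 and 862.8 TPM. Gata1, a factor of erythroid precursors and mast cells, went the other way and was called 13.5-fold higher in replicate 1 from 67 and 5 counts. Germ cell markers had 5 counts in each library, all of Ddx4.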
